A study of Mus musculus with 8 samples.

Results

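The period genes Per1, Per2 and Per3 and the cryptochrome genes Cry1 and Cry2 encode the repressors of the circadian clock. They were followed across kidney cell types of mice with and without the clock gene Bmal1 (Arntl) in the renal tubule, at 2 times of day. The 5 genes were taken by their symbol and make up 5 of the 32285 features counted, of which 21261 are protein coding. Their identifiers are ENSMUSG00000020893 for Per1, ENSMUSG00000055866 for Per2, ENSMUSG00000028957 for Per3, ENSMUSG00000020038 for Cry1 and ENSMUSG00000068742 for Cry2.

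Single-nucleus RNA-seq was carried out on kidneys of 8 male C57BL/6J mice, 2 for each combination of genotype and time point. Ctrl mice were Bmal1lox/lox, and cKOt mice were their Bmal1lox/lox/Pax8-rtTA/LC-1 littermates, so that all mice carried the floxed alleles. In cKOt mice the Pax8 promoter drives the transactivator rtTA along the renal tubule, where doxycycline (DOX) then turns on Cre recombinase from LC-1, and vascular, immune and interstitial cells are not targeted. Both genotypes drank DOX (2 mg/ml) with sucrose (20 mg/ml) for 2 weeks from 8 weeks of age and were killed at 14 weeks, at ZT4 in the light (resting) phase or at ZT16 in the dark (active) phase. Nuclei of frozen central kidney sections were sorted by DAPI and counted with a 10x Genomics 3′ kit, in which a unique molecular identifier (UMI) marks each captured transcript.

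In the mammalian clock, a dimer of BMAL1 with CLOCK or NPAS2 binds E-box sequences and switches on the period and cryptochrome genes. PER and CRY proteins then assemble in the cytoplasm, return to the nucleus and silence that dimer, and the cycle starts again once they have been degraded. CRY1 and CRY2 hold the repressive activity, PER1 and PER2 are the scaffolds that bring it to the dimer, and PER3 is a weaker relative; the genes are also read by D-box binding factors (DBP, TEF, HLF and NFIL3), by the REV-ERB receptors, and, for Per1 and Per2, by cAMP, glucocorticoid and temperature signals.

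The promoters of Cry1 and Per3, which had differences in summed tubular nuclei that passed the main test below, are shown because these elements lie in them. That of Per1, for which no difference passed the test, is shown as well. No window was matched for Per2. Each window covers 250 bases before and 50 after the RefSeq transcription start on assembly GRCm38.p6 and is written 5′ to 3′ on the strand of the gene, with the searched motifs in capitals: the E-box CACGTG and its variant CACGTT, the D-box forms TTATGNAA and TTACGTAA, the cAMP element TGACGTCA and the nuclear receptor half-site AGGTCA, each on both strands.
Cry1, chr10:85185005-85185304, minus strand: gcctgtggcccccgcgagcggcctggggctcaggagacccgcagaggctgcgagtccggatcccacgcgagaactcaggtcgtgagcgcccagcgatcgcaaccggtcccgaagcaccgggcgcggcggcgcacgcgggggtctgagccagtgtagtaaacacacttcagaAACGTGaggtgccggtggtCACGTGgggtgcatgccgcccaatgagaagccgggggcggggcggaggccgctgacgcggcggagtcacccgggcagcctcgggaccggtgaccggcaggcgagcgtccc
Per3, chr4:151044616-151044915, minus strand: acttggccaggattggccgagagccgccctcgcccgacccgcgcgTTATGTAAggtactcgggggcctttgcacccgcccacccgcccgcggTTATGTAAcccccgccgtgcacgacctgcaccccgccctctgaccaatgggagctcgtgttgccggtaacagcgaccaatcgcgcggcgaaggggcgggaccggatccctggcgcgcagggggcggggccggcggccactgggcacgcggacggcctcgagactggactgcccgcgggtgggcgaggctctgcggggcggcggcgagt
Per1, chr11:69098699-69098998, plus strand: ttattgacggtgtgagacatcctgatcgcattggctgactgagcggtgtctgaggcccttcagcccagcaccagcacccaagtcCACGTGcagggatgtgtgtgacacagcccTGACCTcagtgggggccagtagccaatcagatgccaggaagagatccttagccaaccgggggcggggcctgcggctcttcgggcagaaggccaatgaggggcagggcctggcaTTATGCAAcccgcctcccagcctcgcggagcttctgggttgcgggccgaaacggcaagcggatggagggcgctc
Cry1 held CACGTG with its first base at -60 from the start and, 19 bases further upstream at -79, CACGTT on the other strand (written AACGTG). Per3 held no E-box of either form in this window but 2 copies of the D-box TTATGTAA, at -205 and -158. Per1 held CACGTG at -166, the half-site AGGTCA on the other strand (written TGACCT) at -137 and the D-box TTATGCAA at -24. A second Per1 start (chr11:69099902-69100201, plus strand) held none of the 6 motifs, and the Cry2 window (chr2:92434020-92434319, minus strand) held CACGTT alone, on the other strand at -166. Of all 32851 windows of this length, 7.15% held CACGTG, 4.68% CACGTT, 3.38% TTATGNAA, 16.3% AGGTCA, 1.79% TGACGTCA and 0.119% TTACGTAA, so a match describes the window and is no evidence of binding.

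The 8 libraries held 36548873 to 54500820 UMIs in 8758 to 10975 nuclei each, and pairs of libraries shared 18 to 42 barcodes. Nuclei were clustered without the clock genes and named from marker genes, so that a name such as DCT stands for DCT-like nuclei, and 77987 of 81391 nuclei (95.8%) fell into named classes, of which 20 had enough nuclei in every library. The tubular pool joined 52096 nuclei of the proximal convoluted and straight tubule (PCT, PST and the intermediate PCT/PST), thin descending and ascending limb (thinDL, thinAL), thick ascending limb (TAL), macula densa (MD), distal convoluted tubule (DCT), connecting tubule (CNT), cortical and medullary collecting duct (CCD, MCD) and type A and B intercalated cells (aIC, bIC). The non-tubular pool joined 24480 nuclei of vascular (Vasc), mesangial and pericyte (Mes/Per), smooth muscle and juxtaglomerular (SMC/JGC), myeloid (Myel) and T and natural killer (TC/NK) classes, and podocytes (Podo) and urothelium (UT) were kept outside both. Some tubular RNA was counted in other nuclei: Slc5a12, a PCT gene, had a median of 268 CPM (UMI counts scaled to library size, here with no further factor) in the non-tubular pool against 4629 CPM in PCT, and Slc12a1, the TAL cotransporter, 509 CPM against 22287 CPM in TAL. Its part in the non-tubular values was not tested.

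UMIs of protein-coding genes were summed per library within a pool or class, levels are given from here on as CPM on library sizes scaled by edgeR's TMM method, and differences between the 4 groups were tested with the quasi-likelihood test of edgeR, fitted over all protein-coding genes that passed a count filter. A gene was called when its Benjamini-Hochberg adjusted p was under 0.05. In sums over a pool or class, fewer nuclei that use a gene and less of its RNA per nucleus cannot be told apart. Each library is 1 mouse by the methods, so p-values rest on the spread between 2 mice per group. All classes of a library come from that mouse, so a count of classes is not a count of independent values. Only ZT4 and ZT16 were sampled, so alike levels at both do not show a flat level over the day. A shift in the time of a peak and a lost rhythm cannot be told apart from these 2 times. Arntl (Bmal1), the target of Cre, had 27.4 and 21.4 CPM in the tubular pool of the Ctrl ZT4 mice, 169 and 173 CPM at ZT16, 327 and 229.9 CPM in the cKOt ZT4 mice and 333 and 304 CPM at ZT16. These 3′ counts cannot be limited to the deleted part of the gene, and so they check neither the deletion nor the labels.

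Cry1 was low in the tubule of Ctrl mice at ZT4 and high in all 3 other groups. In the tubular pool it had 4.91 and 3.75 CPM in the Ctrl ZT4 mice and 36.3 and 37.7 CPM in the Ctrl ZT16 mice. In cKOt mice it had 60.5 and 42.0 CPM at ZT4 against 55.4 and 58.2 CPM at ZT16. Both Ctrl ZT4 libraries thus lay far below the other 6, whereas the cKOt time points overlapped. Cry1 was 8.67-fold higher at ZT16 than at ZT4 in Ctrl mice (log2 3.12, SE 0.22, adjusted p = 0.0010) and 11.9-fold higher at ZT4 in cKOt than in Ctrl mice (log2 3.57, SE 0.22, adjusted p = 0.000302). The difference between time points in cKOt mice was 0.15 on the log2 scale (SE 0.19, 95% interval -0.22 to 0.53), and that between genotypes at ZT16 was 0.61 (SE 0.19, adjusted p = 0.489). Neither was called. The change with time differed between the genotypes by -2.96 on the log2 scale (SE 0.29, adjusted p = 0.0282), a call that was lost, with an adjusted p of up to 0.158, when any Ctrl library or either cKOt ZT16 library was left out. The contrast of time points in Ctrl mice and that of genotypes at ZT4 share the Ctrl ZT4 libraries.

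In the non-tubular pool, where Bmal1 was not targeted, Cry1 followed the time of day in both genotypes. It had 11.4 and 11.2 CPM in the Ctrl ZT4 mice, 40.1 and 40.9 CPM in the Ctrl ZT16 mice, 17.5 and 17.3 CPM in the cKOt ZT4 mice and 47.9 and 52.5 CPM in the cKOt ZT16 mice. The time points did not overlap in either genotype. Cry1 was 3.57-fold higher at ZT16 in Ctrl mice (log2 1.83, SE 0.16, adjusted p = 0.00153) and 2.87-fold higher in cKOt mice (log2 1.52, SE 0.15, adjusted p = 0.00302, or 0.059 without cKOt ZT16 replicate 2). At ZT4 the cKOt mice were above Ctrl mice by 0.62 on the log2 scale (SE 0.17), which was not called (adjusted p = 0.325).

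**Figure D1:**
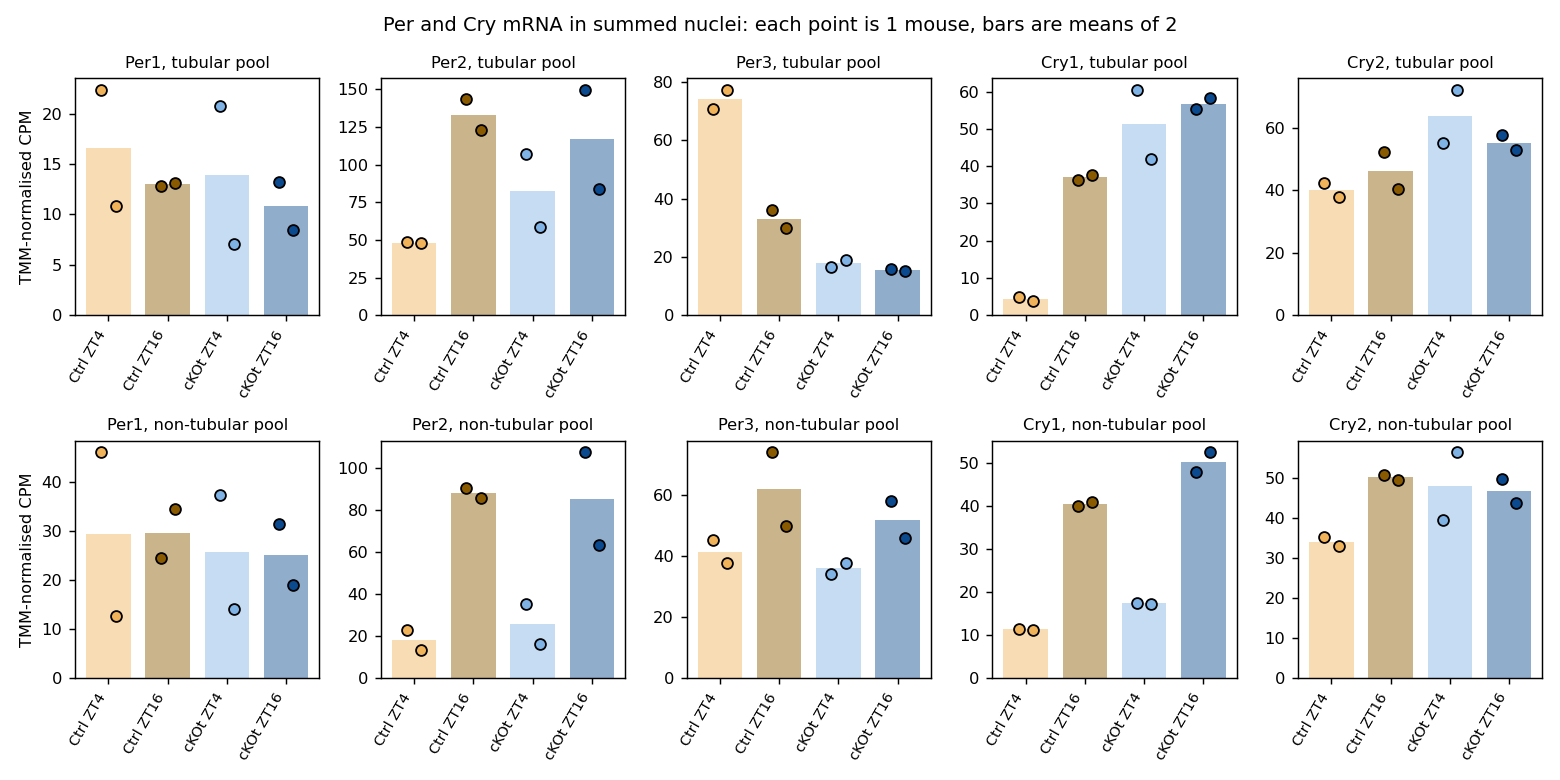
Levels of the 5 genes (TMM-normalised CPM, linear axes from 0) in the tubular and non-tubular pools. Points are the 8 mice and bars are means of 2 mice per group. The 2 tubular Ctrl ZT4 points of Cry1 (4.91 and 3.75 CPM) lie below those of the other 6 mice, while the non-tubular points of Cry1 separate by time in both genotypes.

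Of the 5 genes, 2 were called between time points in the tubular pool of Ctrl mice (Cry1 and Per3), where 0.149% of all genes tested were called. Between genotypes at ZT4 the same pool also gave 2 (Cry1 and Per3; 0.453% of all genes), at ZT16 1 (Per3; 0.292%) and for the interaction 1 (Cry1; 0.0255%). Between time points in cKOt mice none of the 5 was called in the tubular pool, where edgeR called 0 of 15423 genes (0%), with 1142 at an unadjusted p under 0.05, and DESeq2 called 96. Over all nuclei, Cry1 was called between time points in Ctrl mice (0.155% of all genes), and Cry1 and Per3 were called between genotypes at ZT4 (0.446%). DESeq2 called further members there between time points in Ctrl mice, with the count given in the part on processing. By edgeR none was called there between time points in cKOt mice (0.0436%), between genotypes at ZT16 (0.199%) or for the interaction (0%, with 718 genes at an unadjusted p under 0.05 and 48 called by DESeq2). Of the members, DESeq2 called Per3 at ZT16 (edgeR adjusted p = 0.0994) and the interaction of Cry1 (edgeR adjusted p = 0.0567), the latter a call also made by edgeR with no filter on low counts, with all genes fitted together and in its older robust fit. In the non-tubular pool 2 were called between time points in Ctrl mice (Cry1 and Per2; 0.132% of all genes) and 1 in cKOt mice (Cry1; 0.0353%). Between genotypes none was called there, at ZT4 (0.0982% of all genes) or at ZT16 (0.042%), nor for the interaction (0%, with 763 genes at an unadjusted p under 0.05 and 38 called by DESeq2).

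The difference between the pools was tested itself, in a model with a term for each mouse. The genotype difference of Cry1 at ZT4 was larger in the tubular than in the non-tubular pool by 2.95 on the log2 scale (SE 0.22, adjusted p = 0.000108), and that of Per3 was lower by 1.85 (log2 -1.85, SE 0.18, adjusted p = 0.000824); these 2 stand against 0.248% of all genes. Between time points in Ctrl mice the pools differed for Per3 by -1.71 (SE 0.17, adjusted p = 0.0029, or 0.0651 without Ctrl ZT4 replicate 2) and for Cry1 by 1.31 (SE 0.20, adjusted p = 0.0455), against 0.139% of all genes. The Cry1 value lost its call when any Ctrl library or either cKOt ZT16 library was left out, with an adjusted p of up to 0.372, or when doublets were (0.0735). The interaction of Cry1 differed by -2.65 (SE 0.27, adjusted p = 0.00783, and up to 0.0999 without Ctrl ZT4 replicate 2 or either cKOt ZT16 library; 0.0251% of all genes). By edgeR no member was called to differ between the pools for time points in cKOt mice (0.00638% of all genes; for Cry1 -1.34, SE 0.17, adjusted p = 0.0543) or for genotypes at ZT16 (0.108%). For time points in cKOt mice, DESeq2 and edgeR's older robust fit called both Cry1 and Per2 (Per2 edgeR adjusted p = 0.0909), and Cry1 was also called with no filter, with all genes fitted together and with the other makeup of the pools that follows. When PCT, PST and PCT/PST nuclei were left out of the tubular pool and the non-tubular pool was reduced to Vasc nuclei, the Cry1 difference between genotypes at ZT4 was still called and the other 4 were not. Between time points in Ctrl mice they were then -0.75 for Per3 (adjusted p = 0.223) and 0.84 for Cry1 (0.308), between genotypes at ZT4 -1.27 for Per3 (0.0766), and the interaction of Cry1 was -2.22 (0.128).

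Among tubular classes, Cry1 was higher at ZT16 than at ZT4 in Ctrl mice from the proximal tubule to the collecting duct. It was not called in thinAL, MD, MCD or bIC. Over the 20 classes, 22 pairs of a member and a class were called in this contrast (10 without Ctrl ZT4 replicate 2, and 14 or 13 without Ctrl ZT16 replicate 1 or 2), where 0.348% of all gene and class pairs were called. In the 12 classes where both time points passed the count filter by themselves, Cry1 was higher at ZT16 in 12 and called in 8. A further 7 classes entered only through the ZT16 group, in which Cry1 is high, and so tell little of the direction; CCD, CNT and thinDL among them were called. The 11 called classes ran from a log2 of 1.84 (SE 0.21) in Vasc to 4.14 (SE 0.31) in PCT/PST and 4.56 (SE 0.68) in thinDL. In DCT, which reabsorbs sodium chloride through the thiazide-sensitive cotransporter, it had 5.3 and 3.0 CPM at ZT4 against 47.4 and 53.8 CPM at ZT16 (log2 3.61, SE 0.35, adjusted p = 2.61e-05). In TAL, the segment of the Na-K-2Cl cotransporter, it had 7.2 and 6.8 CPM at ZT4 against 47.2 and 44.2 CPM at ZT16 (log2 2.70, SE 0.26, adjusted p = 4.76e-05). In PCT it had 4.1 and 1.8 CPM at ZT4 against 38.8 and 40.1 CPM at ZT16 (log2 3.72, SE 0.31, adjusted p = 0.000761). In none of these 3 segments did the time points overlap, and the 3 calls held without each library. In thinDL the Ctrl ZT4 value rests on 2 counts, 2 in replicate 1 and 0 in replicate 2, and the ratio of ZT16 to ZT4 was 26.7 (95% counting interval 7.14 to 225). The calls were lost without Ctrl ZT4 replicate 2 in CCD (adjusted p = 0.22), aIC (0.074) and thinDL (0.103), in Mes/Per (0.064, or 0.0781 without Ctrl ZT16 replicate 1), and in PST without any Ctrl or either cKOt ZT16 library (up to 0.363). Without Ctrl ZT4 replicate 1 or 2 the log2 value of thinDL was 8.03 or 3.11.

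At ZT4, Cry1 was called higher in cKOt than in Ctrl mice in the 12 tubular classes tested and in none of the other 4. In the 12 classes where both genotypes passed the count filter it was higher in cKOt mice in 12 and called in 9, while CCD, CNT, UT and thinDL entered only through the cKOt mice, in which it is high. In total 24 pairs of a member and a class were called in this contrast (13 without Ctrl ZT4 replicate 2), against 0.316% of all pairs. In CNT, a segment of the aldosterone-sensitive nephron, Cry1 had 2.0 and 4.0 CPM in Ctrl mice and 87.1 and 56.9 CPM in cKOt mice (log2 4.47, SE 0.40, adjusted p = 3.88e-07). The Ctrl values of Cry1 in CNT rest on 2 and 5 counts. In bIC, which secrete bicarbonate, it had 11.1 and 15.0 CPM in Ctrl mice and 164 and 103 CPM in cKOt mice (log2 3.33, SE 0.41, adjusted p = 0.000364). In Vasc, it had 10.0 and 11 CPM in Ctrl mice and 17.2 and 17.6 CPM in cKOt mice, a log2 difference of 0.72 that was not called (adjusted p = 0.795). UT, outside both pools, was not called either but had 3 and 6 counts in Ctrl mice and 21 and 16 in cKOt mice. These came from 103 and 104 nuclei of Ctrl mice and 125 and 116 of cKOt mice. Calls were lost without Ctrl ZT4 replicate 2 in CCD (adjusted p = 0.0718) and thinDL (0.097), in PST without either Ctrl ZT4 library (up to 0.0536), in thinAL without either Ctrl ZT4 library or cKOt ZT4 replicate 1 (up to 0.178) and in MCD without either Ctrl ZT4 library, cKOt ZT4 replicate 1 or either cKOt ZT16 library (up to 0.378). In thinDL the log2 difference of 4.56 (SE 0.71) moved to 8.04 or 3.12 without Ctrl ZT4 replicate 1 or 2. MD, with 17 to 47 nuclei per library, did not pass the count filter for Cry1 at ZT4, where it had 32.1 and 33.1 CPM in Ctrl mice and 14.5 and 34.3 CPM in cKOt mice.

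Between time points in cKOt mice 4 pairs were called, against 0.13% of all pairs: Cry1 in Mes/Per and Vasc, Per2 in Mes/Per and Per3 in TAL. For Cry1 both classes lie outside the tubule. In Mes/Per Cry1 had 15.1 and 16.9 CPM at ZT4 against 49.7 and 56.2 CPM at ZT16 (log2 1.71, SE 0.20, adjusted p = 0.0118), and in Vasc 17.2 and 17.6 CPM against 47.4 and 50.5 CPM (log2 1.5, SE 0.19, adjusted p = 0.00488). Both calls were lost without either cKOt ZT16 library, and that in Mes/Per also without cKOt ZT4 replicate 2, with an adjusted p of up to 0.143. At ZT16 Cry1 was higher in cKOt mice in 16 of the 18 classes where both genotypes passed the filter, by a median of 0.50 on the log2 scale, and called in none of the 20 tested, whereas 0.177% of all pairs were called. The interaction was called for Cry1 in 7 tubular classes, against 0.0275% of all pairs, from -2.44 (SE 0.49) in aIC to -3.84 (SE 0.40) in PCT/PST, with thinDL at -4.22 (SE 0.83, and -7.70 or -2.77 without Ctrl ZT4 replicate 1 or 2) on the few counts given above. CNT also rested on few counts of Cry1 in the Ctrl ZT4 mice, with 2 and 5. The calls in CNT (-3.57, SE 0.52) and DCT (-3.44, SE 0.43) held without each library. With clusters from 50 instead of 1000 principal components, where CNT held fewer nuclei, that in CNT was lost (-3.22, adjusted p = 0.0545). That in TAL (-2.58, SE 0.32) was lost without Ctrl ZT4 replicate 2 (adjusted p = 0.068), that in PCT/PST without any one library (up to 0.179), and those in PCT, aIC and thinDL without 5, 7 and 5 libraries (up to 0.134, 0.683 and 0.881). DESeq2 called neither aIC (adjusted p = 0.329) nor thinDL (0.523), and thinDL was also lost with no filter on low counts (0.123).

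**Figure D2:**
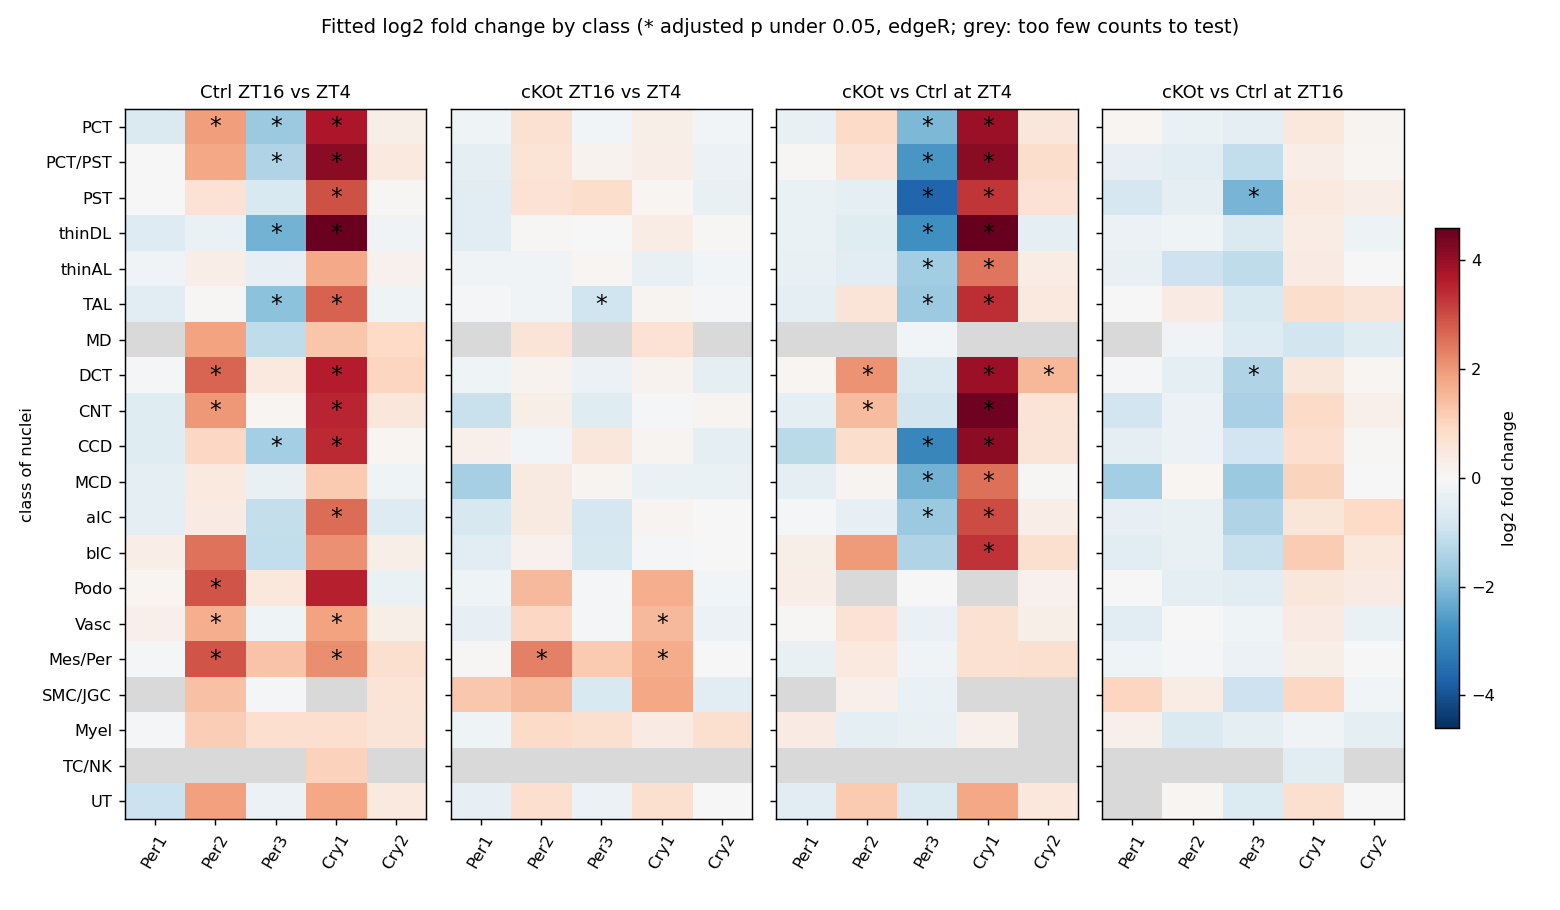
Fitted log2 fold changes of the 5 genes (columns) in each of the 20 classes (rows) for 4 contrasts; colour gives the log2 fold change, stars mark an edgeR adjusted p under 0.05, and grey cells had too few counts to test. Between genotypes at ZT4 Cry1 is starred in 12 tubular classes and Per3 in 9, while the columns of Per1 hold no star.

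PCT/PST and PCT were held by different clusters in different groups, whereas PST was 1 cluster that took 23.4% to 26.8% of its nuclei from each group. Of the clusters that make up PCT/PST, one took 44.0% and 43.7% of its nuclei from the cKOt mice at ZT4 and ZT16, and the other took 48.4% and 50.9% from the Ctrl mice at these times. Of the 3 clusters of PCT, one took 49.1% of its nuclei from Ctrl ZT4 and 5.21% from cKOt ZT16 mice, one took 7.96% and 45.9%, and the third took between 17.5% and 30.6% from each group. With clusters from 50 instead of 1000 principal components, the 3 clusters named PCT/PST took 0.596%, 0.372% and 0% of their nuclei from Ctrl ZT16 mice, while 2 clusters with 98.3% and 98.7% of their nuclei from these mice stayed unnamed. The calls of Cry1 and Per3 with time in Ctrl mice and of the Cry1 interaction, which were lost in PCT/PST with that clustering, were therefore not checked by it. The same clustering named 1457 nuclei CNT instead of 2474 and 2217 nuclei CCD instead of 1315, and Spock3, Kcnh5 and Kcne1, among the leading genes of CNT above, were among those of a cluster named CCD there. The change of Per3 with time in Ctrl mice was not called in that larger CCD (-1.05, adjusted p = 0.225), which holds other nuclei than the CCD described here. In the main clustering, Mes/Per also joined clusters of uneven makeup. Its largest cluster took 16.6% of its nuclei from cKOt ZT4 and 28.7% from cKOt ZT16 mice. Another took 27.4% and 19.4%, and a smaller cluster took 36.3% and 15.6%. The part of this shift in the changes of Mes/Per in cKOt mice was not tested.

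Cry2, the other cryptochrome, was called by edgeR in no pool and in 1 class. In the tubular pool it had 42.2 and 37.8 CPM in the Ctrl ZT4 mice, 52.1 and 40.4 CPM in the Ctrl ZT16 mice, 55.1 and 72.1 CPM in the cKOt ZT4 mice and 57.7 and 52.7 CPM in the cKOt ZT16 mice. The time points overlapped in both genotypes, and at ZT4 both cKOt mice lay above both Ctrl mice, by 0.67 on the log2 scale (SE 0.17, adjusted p = 0.229). In Ctrl mice the log2 difference between time points was 0.22 in the tubular pool (95% interval -0.11 to 0.56) and 0.56 in the non-tubular pool (0.22 to 0.89), and neither was called. Among classes Cry2 was called only in DCT at ZT4, where it had 17.5 and 17.4 CPM in Ctrl mice and 61.5 and 38.3 CPM in cKOt mice (log2 1.52, SE 0.28, adjusted p = 0.015, and up to 0.324 without either Ctrl ZT4 library or cKOt ZT4 replicate 1). It was higher in cKOt mice in 15 of the 16 classes tested at that time, which are sums from the same mice.

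Per2 was higher at ZT16 than at ZT4 in 15 of the 16 classes of Ctrl mice where both times passed the count filter, by sizes that differed between nephron segments. In the non-tubular pool it had 22.8 and 13.5 CPM in the Ctrl ZT4 mice and 90.6 and 85.7 CPM in the Ctrl ZT16 mice, a 4.96-fold rise (log2 2.31, SE 0.35, adjusted p = 0.0397). This call was lost without any one of the Ctrl libraries, with adjusted p between 0.0887 and 0.247, and in edgeR's older fit with robust dispersions (0.142). In cKOt mice the same pool had 35.3 and 16.4 CPM at ZT4 against 108 and 63.6 CPM at ZT16, without overlap (log2 1.75, SE 0.34, adjusted p = 0.0889). In the tubular pool it had 48.4 and 47.9 CPM in the Ctrl ZT4 mice, 143 and 123 CPM in the Ctrl ZT16 mice, 107 and 58.4 CPM in the cKOt ZT4 mice and 149.7 and 84.1 CPM in the cKOt ZT16 mice. The Ctrl time points did not overlap, while the 4 cKOt mice overlapped between the times, with replicate 1 above replicate 2 at each. By edgeR no contrast of Per2 was called there (Ctrl time points: log2 1.48, SE 0.32, adjusted p = 0.166); DESeq2 called the change with time in Ctrl mice (adjusted p = 0.000119).

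Among classes, Per2 was called higher at ZT16 in Ctrl mice in 6 of 19 (CNT, DCT, Mes/Per, PCT, Podo and Vasc), of which Podo passed the filter only through its ZT16 counts. In DCT it had 26.7 and 27.2 CPM at ZT4 against 193 and 148 CPM at ZT16 (log2 2.66, SE 0.26, adjusted p = 2.61e-05), and in CNT 40.6 and 56.3 CPM against 174 and 217 CPM (log2 1.98, SE 0.27, adjusted p = 0.000321). In Mes/Per it had 26.1 and 14 CPM at ZT4 against 150.0 and 138 CPM at ZT16 (log2 2.88, SE 0.40, adjusted p = 0.0178). In TAL the 4 Ctrl mice lay between 39.3 and 42.7 CPM, a log2 difference of 0.04 (SE 0.26), and in thinDL the ZT4 mice had 143 and 105 CPM and the ZT16 mice 98.3 and 96.1 CPM (log2 -0.31, SE 0.33). DCT and CNT kept their calls without each library. Those in PCT, Podo and Vasc were lost without any one Ctrl library (adjusted p up to 0.348), and that in Mes/Per without Ctrl ZT4 replicate 2 or either Ctrl ZT16 library (up to 0.188). The older robust fit did not call PCT, Vasc or Mes/Per (adjusted p up to 0.229), and DESeq2 did not call Podo (0.2). In Mes/Per the rise was also called in cKOt mice, which had 38.0 and 15.5 CPM at ZT4 against 176 and 92.5 CPM at ZT16 (log2 2.33, SE 0.39, adjusted p = 0.0432), a call lost without either Ctrl ZT16, cKOt ZT4 replicate 2 or either cKOt ZT16 library (up to 0.479) and in the older robust fit (0.177).

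At ZT4, Per2 was higher in cKOt than in Ctrl mice in 2 distal classes by the test. In DCT it had 141 and 81.0 CPM in cKOt mice against 26.7 and 27.2 CPM in Ctrl mice (log2 2.05, SE 0.27, adjusted p = 0.00057), and in CNT 165 and 105 CPM against 40.6 and 56.3 CPM (log2 1.44, SE 0.28, adjusted p = 0.0153). In DCT the level in cKOt mice at ZT16 was 153 and 100.0 CPM, overlapping with ZT4, and the interaction was -2.49 (SE 0.35, adjusted p = 0.00491). The DCT difference at ZT4 held without each library. That in CNT was lost without either Ctrl ZT4 library or cKOt ZT4 replicate 1 (adjusted p up to 0.333), with DESeq2 (0.245) and with the older robust fit (0.113), and the DCT interaction without either Ctrl ZT4 library or Ctrl ZT16 replicate 1 (up to 0.0705).

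Per3 was lower in the tubule of cKOt than of Ctrl mice at both times. In the tubular pool it had 70.7 and 77.3 CPM in the Ctrl ZT4 mice, 36.2 and 30.1 CPM in the Ctrl ZT16 mice, 16.5 and 19.1 CPM in the cKOt ZT4 mice and 15.7 and 15.0 CPM in the cKOt ZT16 mice. The groups stood in this order without overlap, and all 4 cKOt mice lay below all Ctrl mice. In cKOt mice Per3 was down to 24.1% of the Ctrl level at ZT4 (log2 -2.06, SE 0.14, adjusted p = 0.000521) and to 46.1% at ZT16 (log2 -1.12, SE 0.14, adjusted p = 0.0229). In Ctrl mice it fell to 45.2% from ZT4 to ZT16 (log2 -1.14, SE 0.14, adjusted p = 0.0227), and in cKOt mice the change was -0.21 (SE 0.14, 95% interval -0.49 to 0.07). The genotype difference at ZT4 held without each library, that at ZT16 was lost without Ctrl ZT4 replicate 2 or any ZT16 library (adjusted p up to 0.251), and the change with time in Ctrl mice was lost without any Ctrl or either cKOt ZT16 library (up to 0.191).

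In the non-tubular pool Per3 had 45.1 and 37.7 CPM in the Ctrl ZT4 mice, 74.0 and 49.9 CPM in the Ctrl ZT16 mice, 34.3 and 37.8 CPM in the cKOt ZT4 mice and 58.0 and 45.9 CPM in the cKOt ZT16 mice. It was thus higher at ZT16 in both genotypes, opposite in sign to the tubular pool of Ctrl mice, by 0.59 (SE 0.20, adjusted p = 0.364) and 0.52 (SE 0.21, adjusted p = 0.442) on the log2 scale, and neither was called. In Mes/Per the Ctrl mice had 41.2 and 31.1 CPM at ZT4 against 106 and 74.3 CPM at ZT16 (log2 1.33, SE 0.23, adjusted p = 0.0580), and the cKOt mice 29.7 and 34.2 CPM against 83.8 and 64.6 CPM (log2 1.20, SE 0.24, adjusted p = 0.0553), and DESeq2 called both (adjusted p = 0.00245 and 0.00953). The time points did not overlap there in either genotype.

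Over the 16 classes where both genotypes passed the filter, at ZT4 Per3 was lower in cKOt than in Ctrl mice in 15 and called in 8, all of them tubular, and CCD was called on the Ctrl counts alone passing. In PST, the straight proximal segment, it had 71.9 and 88.3 CPM in Ctrl mice and 6.1 and 6.7 CPM in cKOt mice (log2 -3.64, SE 0.26, adjusted p = 0.000232). In TAL it had 92.3 and 80.3 CPM in Ctrl mice and 27.4 and 26.5 CPM in cKOt mice (log2 -1.67, SE 0.16, adjusted p = 5.79e-05). In DCT, where Ctrl mice had only 24.7 and 32.3 CPM, the cKOt mice had 17.4 and 18.9 CPM, and the difference of -0.65 (SE 0.27) was not called (adjusted p = 0.760). The calls in PCT, PCT/PST, PST, TAL and thinDL held without each library. That in CCD was lost without Ctrl ZT4 replicate 2 (adjusted p = 0.273), and those in MCD, aIC and thinAL without 3 to 5 of the libraries (up to 0.418). DESeq2 did not call aIC (adjusted p = 0.557) or thinAL (0.0954).

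At ZT16 Per3 was lower in cKOt mice in the 17 classes where both genotypes passed the filter, and the test was passed in PST and DCT. In PST it had 59.1 and 40.9 CPM in Ctrl mice and 12.2 and 10.3 CPM in cKOt mice (log2 -2.15, SE 0.24, adjusted p = 0.00475, and up to 0.0766 without either cKOt ZT16 library). In DCT it had 42.0 and 36.2 CPM in Ctrl mice and 18.6 and 11.9 CPM in cKOt mice (log2 -1.38, SE 0.26, adjusted p = 0.0274, and up to 0.507 without any one ZT16 library or 0.0751 with DESeq2).

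The fall of Per3 from ZT4 to ZT16 in Ctrl mice was called in 5 of 19 classes. In TAL it went from 92.3 and 80.3 CPM to 23.7 and 22.5 CPM (log2 -1.90, SE 0.16, adjusted p = 2.14e-05), in thinDL from 203 and 131 CPM to 48.3 and 22.8 CPM (log2 -2.19, SE 0.34, adjusted p = 0.000344) and in PCT from 71.6 and 71.0 CPM to 26.0 and 17.5 CPM (log2 -1.71, SE 0.22, adjusted p = 0.0109). DCT went the other way, from 24.7 and 32.3 CPM to 42.0 and 36.2 CPM, without overlap but not called (log2 0.46, SE 0.24, adjusted p = 0.418). TAL was also called in cKOt mice, with 27.4 and 26.5 CPM at ZT4 against 14.9 and 13.4 CPM at ZT16 (log2 -0.93, SE 0.19, adjusted p = 0.045). The TAL call in Ctrl mice held without each library. The others were lost without Ctrl ZT16 replicate 2 in thinDL (adjusted p = 0.0596), without either Ctrl ZT4 library or Ctrl ZT16 replicate 2 in PCT (up to 0.108) and without 5 libraries in CCD and 6 in PCT/PST (up to 0.524), that in CCD also with DESeq2 (0.887), and the TAL call in cKOt mice was lost without either library of Ctrl ZT4, cKOt ZT4 or cKOt ZT16 (up to 0.297).

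Per1 was called in no pool, class or contrast by edgeR or DESeq2. In the tubular pool it had 22.4 and 10.8 CPM in the Ctrl ZT4 mice, 12.9 and 13.2 CPM in the Ctrl ZT16 mice, 20.8 and 7.1 CPM in the cKOt ZT4 mice and 13.3 and 8.4 CPM in the cKOt ZT16 mice. In the non-tubular pool the Ctrl ZT4 mice had 46.1 and 12.6 CPM and the cKOt ZT4 mice 37.3 and 14.1 CPM. The groups overlapped, and replicate 1 of both ZT4 groups lay well above replicate 2 in both pools. The log2 difference between genotypes at ZT4 was -0.26 in the tubular pool (SE 0.49, 95% interval -1.22 to 0.70) and -0.17 in the non-tubular pool (SE 0.55, -1.24 to 0.90). The tubular interval includes a fall to less than 50% of the Ctrl level, so these values do not show that Per1 was alike in the genotypes.

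The segments of the tubule did not change alike. Each of the 13 tubular classes was set against the sum of the other tubular classes in a model with a term for each mouse, a test added after the class values had been seen, with p-values adjusted within a class. Of the 65 pairs of a member and a class, 4 were called between time points in Ctrl mice (0.116% of all pairs), 4 between genotypes at ZT4 (0.0998%), 1 between genotypes at ZT16 (0.0953%), 1 for the interaction (0.0138%) and none between time points in cKOt mice (0.0105%). All 10 were of Per2 or Per3.

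The rise of Per2 in Ctrl mice was 1.29 larger on the log2 scale in DCT than in the rest of the tubule (SE 0.17, adjusted p = 0.00294), and it was smaller in TAL (-1.57, SE 0.14, adjusted p = 0.0015) and thinDL (-1.79, SE 0.28, adjusted p = 0.00142). The change of Per3 in DCT lay 1.72 above that of the rest (SE 0.21, adjusted p = 0.00146), a call that held without each library. Between genotypes at ZT4, DCT lay above the rest for Per2 (1.36, SE 0.18, adjusted p = 0.0036) and Per3 (1.48, SE 0.25, adjusted p = 0.0213), and PST below it for Per2 (-1.27, SE 0.20, adjusted p = 0.0218) and Per3 (-1.68, SE 0.22, adjusted p = 0.0121). PST also lay below the rest for Per3 at ZT16 (-1.15, SE 0.20, adjusted p = 0.0335), and DCT had the more negative interaction of Per2 (-1.59, SE 0.22, adjusted p = 0.011). The call of Per2 in TAL was lost without Ctrl ZT4 replicate 2 (adjusted p = 0.0561), and the other 8 were lost without 2 to 6 of the libraries, with an adjusted p of up to 0.272. For Cry1, no class was called to differ from the rest in any contrast.

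**Figure D3:**
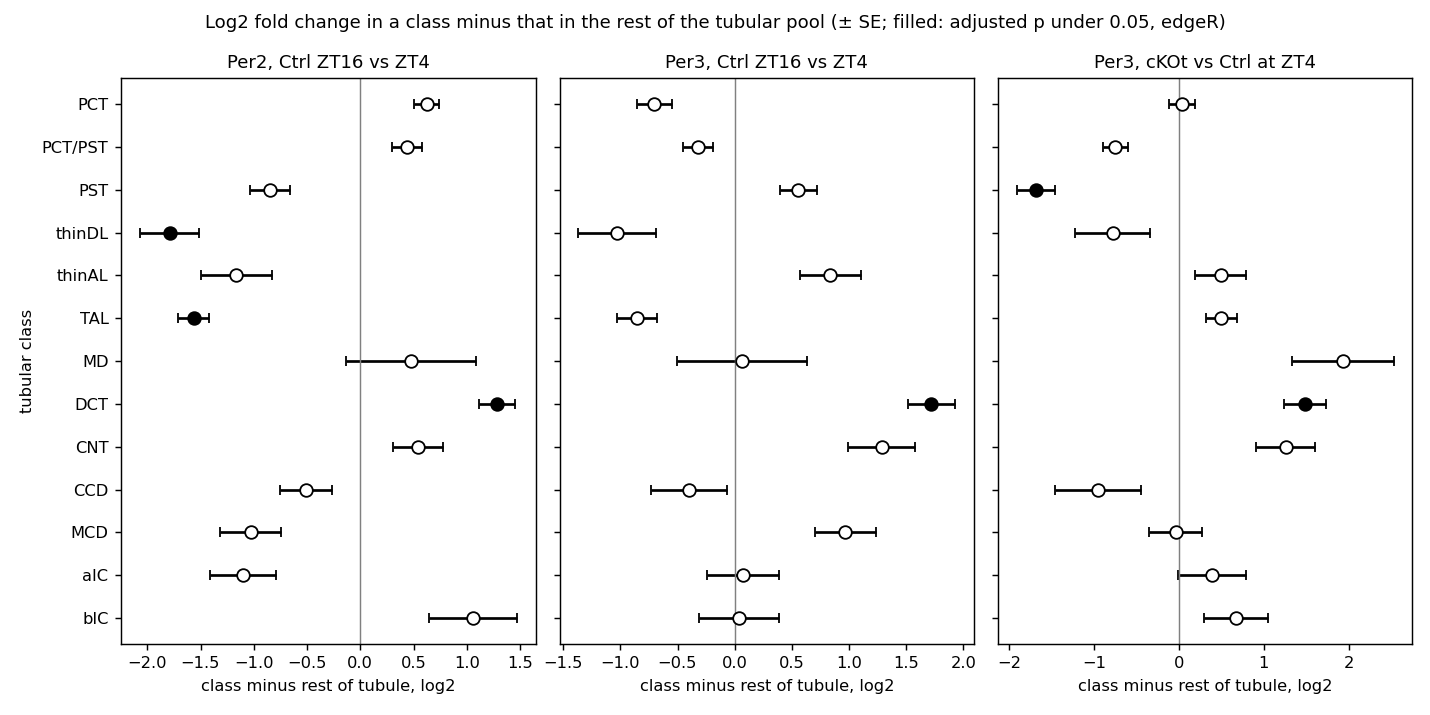
Log2 fold change in each of the 13 tubular classes minus that in the rest of the tubular pool, with bars of ± SE, for Per2 and Per3 between time points in Ctrl mice and for Per3 between genotypes at ZT4; filled points passed an edgeR adjusted p under 0.05. DCT is filled to the right of 0 in all 3 panels, TAL and thinDL are filled to the left for Per2, and PST is filled to the left for Per3 between genotypes.

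The order of classes by level also changed with the group. At ZT16 in Ctrl mice Cry1 was highest in aIC (82.9 CPM, SD 1.20) and lowest in PST (20.0 CPM), whereas in cKOt mice bIC was highest at both times (134 CPM, SD 42.7, at ZT4 and 128 CPM, SD 14.1, at ZT16). Per2 was highest at ZT4 in Ctrl mice in thinDL (124 CPM, SD 27.3) and at ZT16 in PCT (201 CPM, SD 23.7), followed by CNT, PCT/PST and DCT. Per3 was highest in thinDL at ZT4 in Ctrl mice (167 CPM, SD 50.8) and in Mes/Per at ZT16 (90.3 CPM, SD 22.7), and in cKOt mice at ZT4 its lowest level was in PST (6.39 CPM). Per1 had its highest mean in Podo in each of the 4 groups, from 46.7 CPM (SD 20.2) in Ctrl ZT16 to 57.3 CPM (SD 36.9) in cKOt ZT4, with 53.0 CPM (SD 48.1) in Ctrl ZT4. Cry2 ran from 3.51 CPM in TC/NK, on 0 and 1 counts, to 69.9 CPM (SD 19.8) in MCD in Ctrl mice at ZT4. Of the 19 neighbouring pairs in these orders, 14 to 19 overlapped between their 2 mice, among them all 19 of Per2 in both cKOt groups and 17 or 18 of Per1. Of the highest classes named here, only thinDL for Per2 lay above the next class without overlap, and each of the others overlapped with the class after it.

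**Figure D4:**
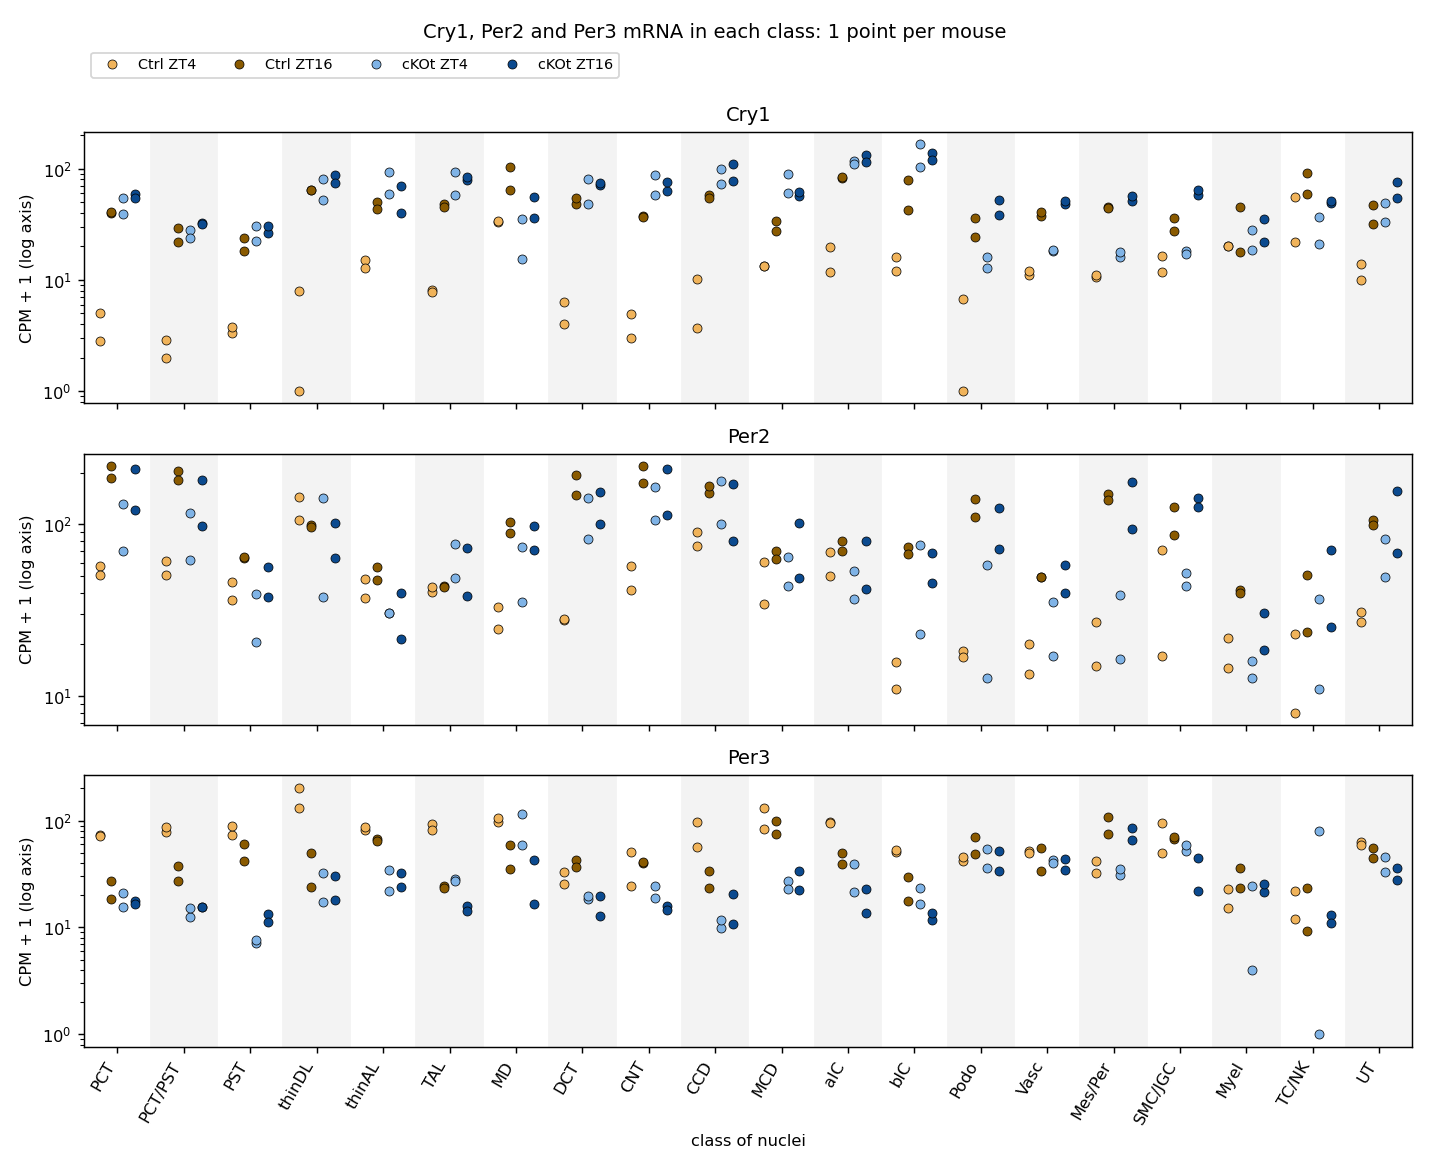
Levels of Cry1, Per2 and Per3 in the 20 classes, as CPM + 1 on a vertical log axis, with 1 point per mouse and colour by group. In the panel of Cry1 the Ctrl ZT4 points lie lowest in most tubular classes. MD is an exception that rests on few counts, 2 and 7 in Ctrl ZT4 and 1 and 3 in cKOt ZT4 mice. In the panel of Per3 the cKOt points of PST lie below those of Ctrl mice.

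Other genes of the pathway were read from lists that were chosen with earlier results of these data known. Counts and medians over them thus describe the lists and are no independent evidence. Of the 3 activators, Npas2 and Arntl were called higher at ZT16 in the tubular pool of Ctrl mice and higher in cKOt mice at ZT4, with Npas2 at a log2 of 2.67 (SE 0.17) and 4.53 (SE 0.18), and Npas2 also at ZT16 (1.91, SE 0.16). By edgeR none of the 3 was called in the non-tubular pool, whereas DESeq2 called 1 between genotypes at ZT16, Npas2 (edgeR log2 1.07, SE 0.25, adjusted p = 0.514). Of 11 genes read from E-boxes or D-boxes or acting beside them, 3 were called by edgeR between time points in the tubular pool of Ctrl mice, and these fell: Nr1d1 (-4.54, SE 0.33), Dbp (-3.76, SE 0.28) and Nr1d2 (-2.03, SE 0.21). Between genotypes at ZT4, Dbp (-3.48, SE 0.28), Nr1d2 (-2.61, SE 0.21), Nr1d1 (-2.67, SE 0.28) and Ciart (-2.65, SE 0.30) were lower in the tubular pool of cKOt mice, and at ZT16 Nr1d2 was the 1 called (-1.77, SE 0.21). In that pool DESeq2 called 5 lower and 1 higher between time points in Ctrl mice and 6 lower and 1 higher between genotypes at ZT4. The higher one was Nfil3 in both, a repressor at D-boxes, for which edgeR gave log2 2.87 (SE 0.59, adjusted p = 0.155) and 3.40 (SE 0.59, adjusted p = 0.0643). The medians of the 11 genes in these contrasts were -0.63, -0.99 and -0.54, beside medians over all genes of 0.02, 0.0034 and 0.0063. In the non-tubular pool Nr1d1 (-3.51, SE 0.31), Nr1d2 (-1.25, SE 0.13) and Dbp (-2.26, SE 0.35) were lower at ZT16 in Ctrl mice, and Nr1d1 (-4.20, SE 0.35) and Nr1d2 (-1.65, SE 0.13) were lower at ZT16 in cKOt mice. Between time points in the tubular pool of cKOt mice, edgeR called none of the 11, as it called no gene there. Their median was -0.27 in that contrast, and DESeq2 called 2 of them lower at ZT16. Of 16 genes for the turnover of PER and CRY proteins and their complexes, such as the casein kinases Csnk1d and Csnk1e and the ubiquitin ligase subunit Btrc, 15 were tested, and none was called in either pool in any contrast by edgeR or DESeq2.

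For each member, genes whose levels followed it closely were listed by the correlation over 128 sums (16 classes in 8 libraries, each class centred on its mean), among 7989 genes. The sums of one mouse share their library and their handling, so these values describe the libraries and carry no test. Cry1 was followed by Arntl (r = 0.86) and Rhobtb1 (0.84), and Per3 by Tef (0.77), Nr1d2 (0.76) and Cyp4b1 (0.63). Per2 was followed by Hspa8 (0.70), Hspa5 (0.61) and Canx (0.60), of which the first 2 encode heat shock family chaperones and the third calnexin. The closest genes to Per1 were Btg2 (0.55), Dusp1 (0.54) and Arid1a (0.53), the first 2 being immediate early genes, and Cry2 was followed by Rhobtb1 (0.45) and Ddc (0.44).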

How the data were processed

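Single-nucleus libraries of 8 kidneys were sequenced after 10x Genomics 3′ v3.1 chemistry. The deposited matrices hold raw UMI counts per gene and nucleus; per the labels the authors used bcl2fastq 2.20, Cell Ranger 7.1.0 and Seurat 5. The sources differ on the genome build, so no coordinates were taken from the files; promoter windows are RefSeq on GRCm38.p6 (4 of 5 members matched), and protein-coding genes were found by Ensembl ID (31674 of 32285 matched).

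Nuclei with at least 500 genes, 800 UMIs and at most 2% mitochondrial counts were kept (81391 of 82784). Scrublet marked 4367 of them as doublets (5.37%), which were kept and left out as an alternative. Clusters came from 2000 variable genes without clock genes, 1000 principal components, 20 neighbours and Leiden resolution 2.2 (Scanpy 1.11.5; 38 clusters, 32 named). The cut-offs for naming were set after the clusters had been seen, so class shares may differ from those of the study, and 3404 nuclei stayed unnamed (4.18%, or 2.85 to 4.90% of a library).

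Sums of UMIs per library were compared in 1 model of the 4 groups with TMM scaling (edgeR 4.0.16, glmQLFit and glmQLFTest, two-sided; R 4.3.3). A gene needed 5 counts in both libraries of a group compared, and p-values were adjusted by Benjamini-Hochberg within each contrast and pool or class. DESeq2 1.42.0, the tool named in the methods for these data, was run as an alternative. CPM are counts scaled to the TMM-adjusted library sizes of those sums. Intervals cover the fit or, for ratios of few counts, counting error only, and depth limits the smaller classes most. The SE of an edgeR value was derived from its F statistic. The 95% intervals of fits used normal quantiles, so they are narrower than the F test implies. The scripts were tested on simulated data.

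The 5 members were named in each contrast, pool and class, Arntl as the targeted gene, other pathway genes where called (the 4 smallest p) and, per member, the 3 genes with the highest correlation. Members and lists were chosen with earlier results of these data known. Some genes of the pathway lists are not reported here, and the counts and medians of those lists leave them out.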

Additional observations from a re-analysis of the deposited data

Results flagged for a closer look

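Differences between groups in the same contrast passed a test of the difference itself (edgeR, adjusted p under 0.05) in 24 cases, all of Cry1, Per2 or Per3. The shares of all genes called in these tests are given above. The Cry1 interaction in CNT and DCT held without each library. So did the pool differences of Cry1 and Per3 between genotypes at ZT4 and the change of Per3 with time in DCT against the rest. The others did not. The change from ZT4 to ZT16 differed between cKOt and Ctrl mice for Cry1 by -2.96 on the log2 scale in the tubular pool. Among classes the same interaction was -3.57 in CNT, -3.44 in DCT, -3.44 in PCT, -3.84 in PCT/PST, -2.58 in TAL, -2.44 in aIC and -4.22 in thinDL, the last on 2 counts in the Ctrl ZT4 mice. For Per2 it was -2.49 in DCT.

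Between the tubular and non-tubular pools, the change with time in Ctrl mice differed for Per3 by -1.71 and for Cry1 by 1.31. The genotype difference at ZT4 differed for Per3 by -1.85 and for Cry1 by 2.95, and the interaction of Cry1 differed by -2.65. The 2 pools come from the same mice, and the model held a term for each mouse.

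Between a tubular class and the rest of the tubular pool, the change with time in Ctrl mice differed for Per2 by 1.29 in DCT, -1.57 in TAL and -1.79 in thinDL, and for Per3 by 1.72 in DCT. The genotype difference at ZT4 differed for Per2 by 1.36 in DCT and -1.27 in PST, and for Per3 by 1.48 in DCT and -1.68 in PST. At ZT16 it differed for Per3 by -1.15 in PST, and the interaction of Per2 differed by -1.59 in DCT. These class tests were chosen after seeing the data.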

How the results depend on the processing

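No value of a single member that was called changed sign under any alternative run. Values that were not called were not checked for their sign. Of the values of single members that were called, 1177 kept their call under an alternative and 226 lost it, and of 87 such values 34 kept it without each of the 8 libraries. Of the lost calls, 3 were in the PCT/PST of 50 principal components, which held almost no Ctrl ZT16 nuclei and so checks none of them. Of the counts of members called, in all nuclei the change with time in Ctrl mice went from 1 to 3 with DESeq2 and 2 with the crossed pairing, the genotype difference at ZT16 from 0 to 1 with either, and the interaction from 0 to 1 with DESeq2, with no filter on low counts, with all genes normalized together and with edgeR's older robust fit. Between the pools, the change with time in Ctrl mice went from 2 to 1 without doublets and to 0 with the other makeup of the pools, and that in cKOt mice from 0 to 2 with DESeq2 or the older robust fit and to 1 with no filter, all genes together or the other makeup. With the other makeup the genotype difference at ZT4 went from 2 to 1 and the interaction from 1 to 0. With no filter on low counts, calls were lost for Cry1 and Per3 in thinAL at ZT4 (adjusted p = 0.138 and 0.172), Cry2 in DCT at ZT4 (0.0558), Per3 in DCT at ZT16 (0.0569) and Per2 in Podo and PCT with time in Ctrl mice (0.4 and 0.0624) and in Mes/Per in cKOt mice (0.0681), and for the Cry1 interaction in thinDL (0.123, or 0.0666 with the crossed pairing). With the older robust fit the non-tubular change with time in Ctrl mice went from 2 to 1.

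When 1 library was left out, pairs of a member and a class called ranged from 10 to 25 (time in Ctrl mice), 0 to 4 (time in cKOt mice), 13 to 24 (genotype at ZT4) and 0 to 3 (genotype at ZT16). Both lowest counts in the contrasts with Ctrl ZT4 mice came without Ctrl ZT4 replicate 2, and none was called between time points in cKOt mice or between genotypes at ZT16 without either cKOt ZT16 library. Members called ranged from 1 to 2 (tubular, time in Ctrl mice), 0 to 1 (tubular, genotype at ZT16 and interaction), 1 to 2 and 0 to 2 (non-tubular, time in Ctrl and in cKOt mice), 0 to 2, 0 to 1 and 0 to 1 (between pools, time in Ctrl and cKOt mice and interaction) and 0 to 1 (all nuclei, interaction). A lone library in a group is then assumed to vary like the other groups.

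With the replicate number as a block, members called between time points went from 2 to 1 in the tubular pool of Ctrl mice (Per3, adjusted p = 0.0559) and from 1 to 2 in the non-tubular pool of cKOt mice. It also ended the calls of Cry1 in PST with time in Ctrl mice (0.0530), of the Cry1 interaction in PCT/PST (0.0947) and of Per3 in MCD at ZT4 (0.0907). Deviations of same-numbered libraries correlated by 0.447 and 0.454 between the genotypes at ZT4 and at ZT16, and by -0.27 to 0.21 between time points. Not every pair was thus above 0.1 and no label says what a number shares, so the numbers were not taken to pair the mice. The values between time points do not bear on something that same-numbered mice share within a time point only. A block within each time point was not fitted, so the part of such sharing in the p-values was not tested. A crossed pairing, added after seeing the data, changed the counts in all nuclei given above.

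By edgeR and DESeq2, 23 and 222 genes were called between time points in the tubular pool of Ctrl mice, 70 and 260 between genotypes at ZT4, 45 and 194 at ZT16 and 4 and 27 for the interaction. The cause of these changes was not tested.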
